A study of Mus musculus with 4 samples.

Results

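The genes described here act in the first steps of T cell receptor signalling. They are the kinase genes Lck, Fyn and Zap70 and the adaptor genes Lat, Lcp2 and Skap1. The others are the co-receptor gene Cd4, the co-stimulatory receptor gene Cd28 and the phosphatase gene Ptprc. These 9 genes were chosen by name from the 50600 genes of the tables, each together with any gene whose exons overlap its own on the opposite DNA strand. Counts came from 4 libraries of primary cells from C57BL/6NJ mice, labelled T-helper 2 cells (CD4 T cells that make interleukins 4, 5 and 13) and numbered as biological replicates 1 to 4 of a single group. The labels give the age as unknown, share 1 donor identifier among the samples and name no treatment, and in the file headers the time point is 0 hours. Nothing says that the libraries are from separate animals, so p-values over libraries measure only the spread between these samples, which may be technical.

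When a T cell meets its antigen, Lck, a kinase held at the tail of CD4, phosphorylates the CD3 and zeta chains of the receptor. Zap70 docks on these chains and phosphorylates the membrane adaptor Lat, and Lcp2 (also called SLP-76) joins the complex that starts calcium and Ras signals. Ptprc (CD45) removes an inhibitory phosphate from Lck, Cd28 supplies co-stimulation, and Skap1 links the receptor to integrin adhesion.

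A count here is the number of read pairs assigned to exons on the annotated strand of a gene, with strand setting 1 of the counting program. The strand that the library kit marks is not given in the sources used here, and counting with another strand setting was not tested. The values below are therefore levels on the annotated strand as counted, and whether they stand for sense or antisense RNA was not tested. The libraries held 1452053 to 2351916 counts, and the 9 genes together had 4578, or 0.0583% of all.

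Of the 9 genes, 2 had an exon overlap with a gene on the opposite strand, Skap1 and Lcp2. Among all 21764 protein-coding genes 22.1% had one, a share close to 2 of 9. At Skap1 the overlap is 1 whole coding exon of 186 bases, which also lies within an exon of the long non-coding RNA gene 2010300F17Rik.

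At Lcp2 the overlap is 88 bases, which also lie in an exon of 4930469K13Rik, annotated as protein-coding. These bases are in the 3′ UTR of Lcp2 and are not printed. Genes of the opposite strand lie within introns of Fyn and Zap70 without touching an exon. Of these opposite genes, 1 exon each of 4930469K13Rik and Gm16364 and 155 of the 1012 exon bases of Gm18828 are shown. They are parts of the stretches counted on the minus strand at plus-strand members (chr11:34096752-34096845 beyond the end of Lcp2, chr10:39557965-39558062 in an intron of Fyn and chr1:36765018-36765172 in an intron of Zap70). The stretch of Gm18828 is the part that both of its transcripts share. The letters are from GENCODE release 21 transcripts (mm10), on the minus strand, 5′ to 3′, all in lower case because no motif is marked.
4930469K13Rik: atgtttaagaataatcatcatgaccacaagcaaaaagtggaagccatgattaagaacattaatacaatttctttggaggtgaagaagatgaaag
Gm16364: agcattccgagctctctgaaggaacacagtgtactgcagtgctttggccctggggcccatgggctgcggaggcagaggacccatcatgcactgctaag
Gm18828: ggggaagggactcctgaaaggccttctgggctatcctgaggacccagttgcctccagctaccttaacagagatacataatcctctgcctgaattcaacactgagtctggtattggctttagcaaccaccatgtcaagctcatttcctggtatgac

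The gene on the opposite strand held far more counts than the member in both overlapping pairs. Skap1, the adaptor that binds the Fyb protein (ENSMUSG00000057058.16, chromosome 11, 96464593 to 96759130, 7462 exon bases), had 34, 44, 36 and 27 counts in replicates 1 to 4. The gene 2010300F17Rik (ENSMUSG00000097289.1, 96712982 to 96747436, 2832 exon bases) had 3961, 3628, 3760 and 2538. No library of one gene overlapped any library of the other. Per kb of exon, 2010300F17Rik had 1226 ± 225 counts and Skap1 4.72 on average, a ratio of 8.0 ± 0.21 on the log2 scale (SD, n = 4). From summed counts the ratio was 260-fold (exact 95% interval 220 to 309, counting error only). The 13887 counts of 2010300F17Rik were 3.03 times those of all 9 members together. The shared exon makes up 2.49% of the exon bases of Skap1 and 6.57% of those of 2010300F17Rik, whose other exon bases lie in introns of Skap1.

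Lcp2, the cytosolic adaptor (ENSMUSG00000002699.13, chromosome 11, 34046920 to 34092295, 4459 exon bases), had 97, 96, 71 and 43 counts. Its opposite gene 4930469K13Rik (ENSMUSG00000085684.1, 33973961 to 34098554, 698 exon bases) had 220, 222, 236 and 136. Again the values of the genes did not overlap between libraries. The ratio per kb was 4.11 ± 0.29 on the log2 scale (SD, n = 4), or 16.9-fold from summed counts (exact 95% interval 14.8 to 19.4). The overlap covers 1.97% of the exon bases of Lcp2 and 12.6% of those of its opposite gene. Each ratio was above 0 in 4 of 4 libraries, with p = 0.13 by the exact two-sided sign-flip permutation (adjusted p = 0.13 over 2 pairs). That is the smallest p that 4 libraries allow, so no ratio could pass 0.05.

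The opposite gene was denser in every library in 2 of 2 pairs. Over all protein-coding genes with such a partner and a mean of at least 20 counts for the pair, this held for 63.1% of 3169, and for 55.1% of the 2581 whose protein-coding gene had a mean of at least 1 TPM. With only 2 pairs the count is not set apart from these shares. With an overlap of at least 100 bases, or with partners that are not protein-coding, Lcp2 loses its partner and the count is 1 of 1, against 64.3% and 83.7% of the pairs of all protein-coding genes.

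Of the 6 opposite genes within 5 kb of a member that share no exon base with it, 4 had more counts per kb than the member in every library, and Gm6963 at Fyn and Gm11529 at Skap1 did not. Fyn encodes a Src family kinase like Lck (ENSMUSG00000019843.14, chromosome 10, 39368855 to 39565381) and had 59, 130, 52 and 52 counts over 4363 exon bases. The antisense gene Gm16364, inside a Fyn intron, had 181, 166, 184 and 60 counts over 1313 bases, a summed ratio per kb of 6.70 to Fyn (exact 95% interval 5.82 to 7.74). Replicates 1 and 3 had the most counts for Gm16364 and replicate 2 the most for Fyn. Gm16365, which starts beyond the end of Fyn and reaches into its introns, had 91, 83, 99 and 48 counts, a summed ratio per kb of 3.39 (2.89 to 3.99). Another opposite gene in Fyn, the processed pseudogene Gm6963, had 6, 8, 0 and 1 counts, on average 9.89 counts per kb against 16.8 for Fyn. Gm11529, which begins 46 bases from Skap1, had 2, 1, 0 and 7 counts, on average 3.91 per kb against 4.72 for Skap1.

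Zap70 (ENSMUSG00000026117.10, chromosome 1, 36761798 to 36782818) had 38, 43, 31 and 18 counts over 2992 exon bases. Gm18828, a transcribed processed pseudogene in an intron of Zap70, had 44, 61, 90 and 26 counts over 1012 bases, which is 5.03-fold the density of Zap70 (exact 95% interval 4.03 to 6.29). Reads that also fit a parent gene of a pseudogene can be assigned differently by aligners, so its counts are uncertain. Beside Cd28, the non-coding gene Gm11579 lies 3306 bases beyond its end on the opposite strand and had 69, 66, 111 and 51 counts against 31, 42, 35 and 32. Its summed density was 15.4-fold that of Cd28 (12.5 to 18.9). In all, 6 of the 8 opposite-strand genes within 5 kb of a member, with or without exon overlap, had more counts per kb than the member in every library. Over all protein-coding genes with a mean of at least 1 TPM this held for 32.1% of 8896 such pairs. These genes were singled out after the counts were seen, and the ratios without exon overlap were not tested.

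Genes on the same strand inside members had few counts. In an intron of Ptprc, A130071D04Rik has 5864 exon bases and had 0, 4, 0 and 2 counts. The microRNA genes Mir8119 in Lck and Mir7058 in Lat had 1 and 0 counts in all. They share 25 and 75 exon bases with their host on the same strand, so their counts are uncertain. Of genes with at least 200 exon bases lying wholly in introns of members, 2 of 3 on the opposite strand (Gm16364 and Gm18828) and 0 of 1 on the same strand had at least 10 counts in every library. Over such genes in introns of all protein-coding genes with a mean of at least 1 TPM, the shares were 20.2% of 742 on the opposite strand and 2.41% of 746 on the same strand.

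**Figure D1:**
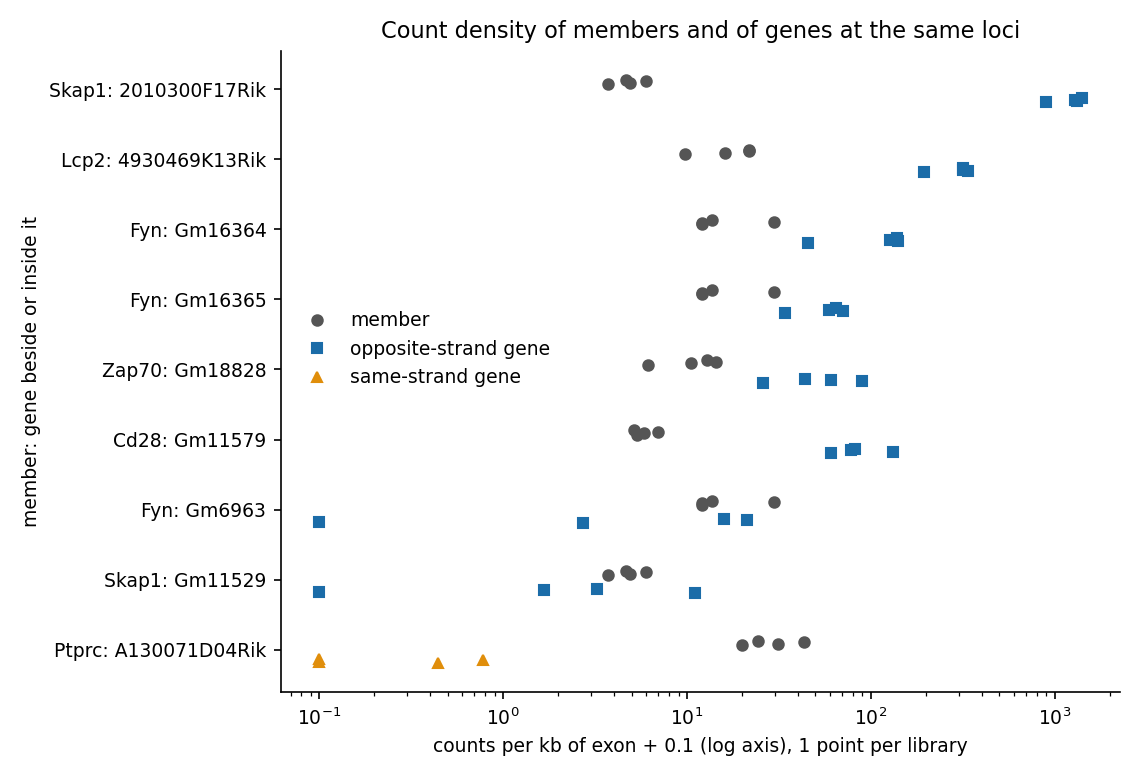
Count density (counts per kb of exon plus 0.1, log axis) of members and of genes inside or beside them, 1 point per library, with grey circles for the member, blue squares for an opposite-strand gene and orange triangles for a same-strand gene. In the upper 6 pairs the squares lie to the right of the circles in every library, by the widest margin for 2010300F17Rik at Skap1 (260-fold from summed counts), those of Gm6963 and Gm11529 do not, and the triangles of A130071D04Rik lie to the left of Ptprc.

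Lck, Fyn and Zap70, the kinases, had 28.7 ± 11.1, 12.8 ± 5.09 and 8.18 ± 1.46 TPM (SD, n = 4). TPM here is the count per exon length, scaled to the same total in every library. Lck (ENSMUSG00000000409.14, chromosome 4, 129548344 to 129573641) had 91, 197, 93 and 66 counts, or 21.6, 45.3, 24.3 and 23.5 TPM in replicates 1 to 4. Replicate 2 stood apart, and the other libraries lay between 21.6 and 24.3 TPM. Fyn had 9.41, 20.1, 9.13 and 12.4 TPM, with the same library highest. Zap70 had 8.84, 9.68, 7.94 and 6.28 TPM, an even spread.

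Among the adaptors, Lat (ENSMUSG00000030742.7, chromosome 7, 126363824 to 126369570) had 74, 115, 65 and 64 counts, or 18.6, 28.0, 18.0 and 24.1 TPM. Its mean of 22.2 ± 4.75 TPM was the highest of the 3 adaptors (SD, n = 4). No gene of the opposite strand lies within 5 kb of Lat. Lcp2 had 15.1, 14.5, 12.2 and 10.1 TPM, and Skap1 3.17, 3.97, 3.70 and 3.77. Skap1 had the narrowest spread of the 9 genes, with a coefficient of variation of 9.34% at 27 to 44 counts per library. Whether so narrow a spread differs from counting error was not tested.

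The co-receptor gene Cd4 and the co-stimulatory receptor gene Cd28 differed in level. Cd4 (ENSMUSG00000023274.14, chromosome 6, 124864692 to 124888221), which binds MHC class II and brings Lck to the receptor, had 125, 243, 148 and 108 counts, or 21.6, 40.6, 28.1 and 27.9 TPM. Cd28 (ENSMUSG00000026012.2, chromosome 1, 60716800 to 60773359), the receptor for CD80 and CD86, had 3.52, 4.62, 4.38 and 5.45 TPM. All Cd4 values lay above all Cd28 values. The phosphatase gene Ptprc (ENSMUSG00000026395.16, chromosome 1, 138062861 to 138175708) had the most counts, 446, 796, 572 and 364, over 18313 exon bases. Per length this was 16.9, 29.3, 23.9 and 20.7 TPM, so it ranked below Cd4 and Lck.

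**Figure D2:**
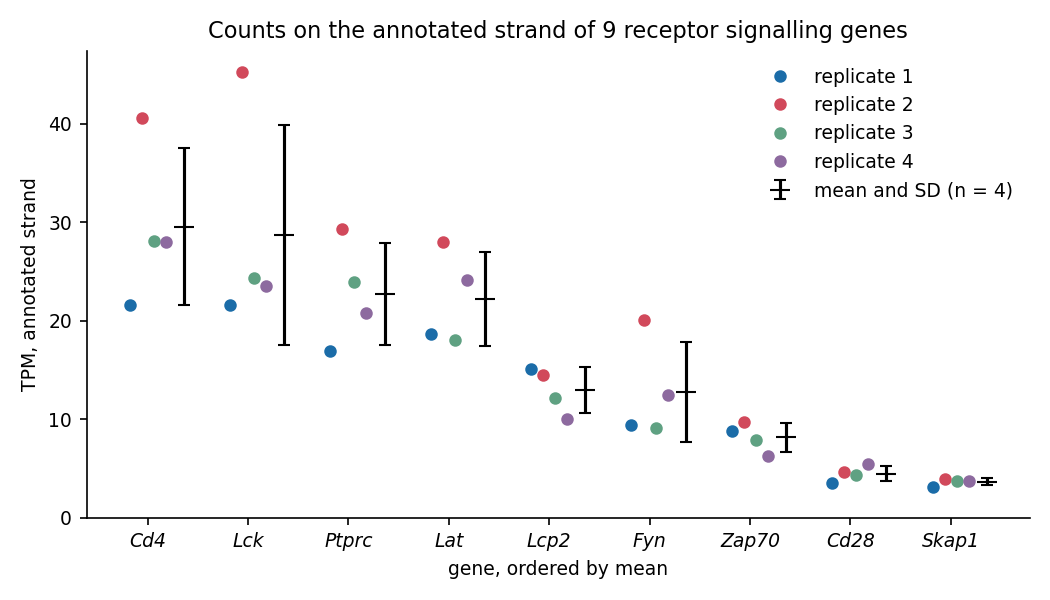
TPM on the annotated strand of the 9 genes, ordered by mean, with 1 coloured point per library and the mean with SD in black (n = 4). Means run from 29.6 TPM for Cd4 to 3.65 for Skap1, and replicate 2 is the highest point for 7 of the 9 genes.

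Each of the 9 genes reached a mean of 1 TPM, against 34.0% of all protein-coding genes. The genes were chosen with earlier results of these data known, so this is a description. Their means lay between the 82.2nd (Skap1) and the 95.3rd percentile (Cd4) of protein-coding genes. By mean TPM the order was Cd4, Lck, Ptprc, Lat, Lcp2, Fyn, Zap70, Cd28 and Skap1. Of the 8 neighbouring pairs in it, 5 kept their order in all libraries, each with p = 0.13 by the exact sign-flip permutation on log2(TPM + 0.1) (adjusted p = 0.2 over 8 pairs). These were Lck above Ptprc by 0.30 ± 0.26, Lat above Lcp2 by 0.76 ± 0.42, Fyn above Zap70 by 0.58 ± 0.50, Zap70 above Cd28 by 0.85 ± 0.47 and Cd28 above Skap1 by 0.28 ± 0.16 (SD, n = 4, log2 scale). The other 3 pairs changed order between libraries. Cd4 and Lck differed by 0.074 ± 0.190 (exact permutation p = 0.5), Ptprc and Lat by 0.030 ± 0.279 and Lcp2 and Fyn by 0.081 ± 0.553 (both exact permutation p = 0.875). Their means differed by less than the spread between libraries. The order was taken from the same values as the tests, and a permutation p of 0.13 is the smallest that 4 libraries allow. These p-values therefore cannot show which neighbours differ.

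Between libraries, replicate 2 was highest for 7 of the 9 genes. The exceptions were Lcp2, highest in replicate 1, and Cd28, highest in replicate 4. Among the 4612 protein-coding genes with a mean of at least 1 TPM and no exon overlap, 43.8% were highest in replicate 2. The excess in replicate 2 over the mean of the others was 1.96-fold for Lck, 1.94-fold for Fyn, 1.57-fold for Cd4, 1.42-fold for Ptprc and 1.38-fold for Lat, and from 1.04-fold to 1.26-fold for the rest. The median over the 4612 genes was 1.27-fold, and Zap70, Lcp2, Skap1 and Cd28 lay below it. With CPM (counts scaled by the library total) 6 of 9 were highest in replicate 2, and with TMM or DESeq2 scaling 5 of 9, against 38.2%, 38.1% and 35.5% of those genes. Without the 2 genes of most counts, CPM put 8 of 9 there, against 48.0%.

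Of the 8 opposite-strand genes, 6 had their highest TPM in replicate 3, Gm6963 in replicate 2 and Gm11529 in replicate 4. Among the 6469 opposite-strand genes with a count that lie within 5 kb of a protein-coding gene with a mean of at least 1 TPM, 30.1% were highest in replicate 3. That set holds genes with very few counts, while the 6 each had a mean of at least 10 counts, so the shares are not fully alike. Over 1641 non-coding genes with exon overlap and a mean of at least 1 TPM, the median of replicate 2 over the mean of the others was 0.917-fold. The ribosomal RNA locus CT010467.1 held 6.90%, 16.8%, 3.47% and 12.6% of the counts in replicates 1 to 4, most in replicate 2 and least in replicate 3. Protein-coding genes without exon overlap held 8.63%, 10.6%, 9.94% and 8.63% of the counts. The part of these shares in the members' values was not tested.

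**Figure D3:**
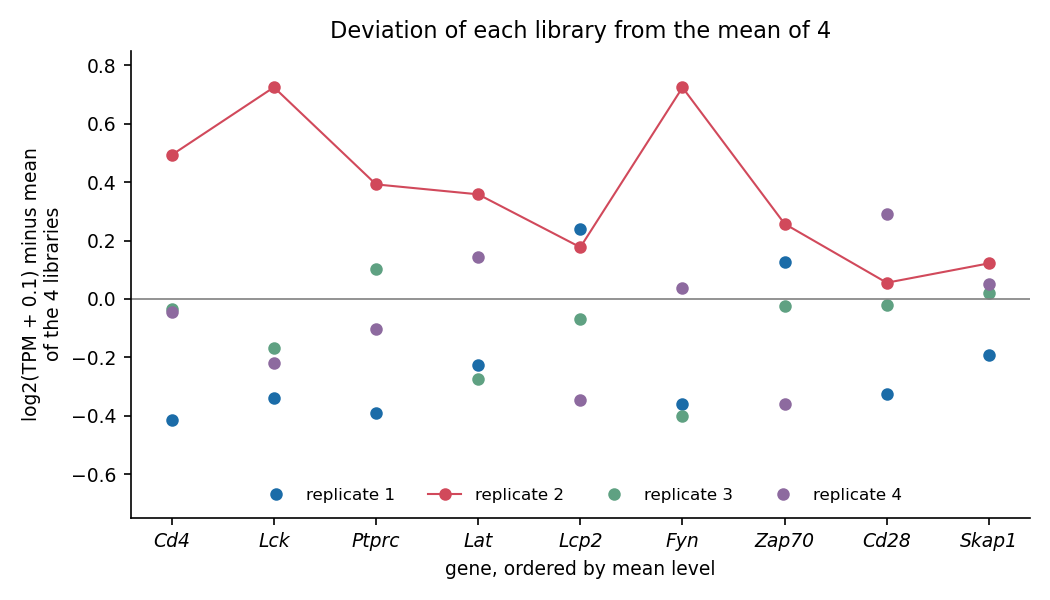
Deviation of log2(TPM + 0.1) in each library from the mean of the 4, for the 9 genes in order of mean level, with a line joining the points of replicate 2. The line stays above 0 throughout, at 0.72 for Lck and for Fyn and at 0.06 for Cd28.

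No member passed a test for varying more between libraries than genes of like abundance. In edgeR's quasi-likelihood fit, 0 of 9 had a Benjamini-Hochberg adjusted p under 0.05 (lowest 0.948, for Ptprc), against 16 of 5755 genes fitted (0.278%). At an unadjusted p under 0.05 there were 2 of 9, against 4.95% of the genes. These were Ptprc and Lck, with adjusted p-values of 0.948 and 0.990 in the edgeR fit. With DESeq2 size factors in the same edgeR fit these counts were 0 of 9 and 0 of 9.

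The wider pathway comprised 90 further genes in 6 classes, chosen with the earlier results known. Of these, 72 reached a mean of 1 TPM, against 34.0% of protein-coding genes, and 56 reached it in every library. Of the 90, 21 had an exon-overlapping opposite gene, close to the 22.1% of protein-coding genes. In 15 of the 19 pairs with a mean of at least 20 counts the opposite gene was denser in every library. Over such pairs of all protein-coding genes the share was 63.1%, and 55.1% where the protein-coding gene had a mean of at least 1 TPM. The 4 other pairs of the wider list were those of Cd247, Grap, Sh2d1a and Sla2.

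Receptor chains were detected in 7 of 7 cases. Trac, the alpha constant gene, had 66.0 ± 13.5 TPM (SD, n = 4). Cd3g and Cd3e, signalling chains of the receptor, had 23.1 ± 7.42 and 10.4 ± 3.77, and Gm48719 on the strand opposite to Cd3e had 5460 ± 1123 counts. Cd247, the zeta chain on which Zap70 docks, had 174 ± 31.2 TPM and shares 3007 exon bases with Pou2f1, which had fewer counts per kb in 4 of 4 libraries.

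Co-receptors and co-stimulatory receptors were detected in 9 of 12 cases. Cd2, an adhesion receptor, had 30.1 ± 7.28 TPM and Cd6 24.5 ± 5.82 (SD, n = 4). Icos, a receptor related to Cd28, had 9 counts in all, and Cd8a, the co-receptor of cytotoxic cells, 1 count, in replicate 4.

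Of the other kinases 6 of 11 were detected. Csk, which places the inhibitory phosphate on Lck, had 9.58 ± 3.20 TPM (SD, n = 4). The Src family genes Yes1 and Blk and the Zap70 relative Syk had 0 counts in every library, so that at most 1.28 to 2.07 CPM, depending on the library, is allowed by the depth.

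All 12 phosphatases and ubiquitin ligases were detected, from 1.16 TPM for Ptpn11 to 21.7 ± 5.15 for Ptpn6 (SD, n = 4). Ptpn6 encodes the phosphatase SHP-1, and Gm20531 opposite to it had 2928 ± 445 counts. Ptpn2 had 7.56 ± 1.49 TPM and Ubash3b 1.30 ± 0.902.

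Adaptors were detected in 18 of 24 cases. Sla2, which lowers receptor levels, had 304 ± 25.4 TPM (SD, n = 4), the highest of the 90 genes, and shares 731 exon bases with Rab5if, which was less dense in 4 of 4 libraries. Fyb, the partner of Skap1, had 37.6 ± 6.20 TPM, with 5572 ± 1027 counts on Gm2245 opposite to it. Evl, an actin regulator bound by Fyb, had 465 counts in all against 8314 ± 2055 per library on Degs2. Themis had 2.56 ± 0.903 TPM and its opposite pseudogene 4930519F09Rik 586 ± 163 counts, while Ccnh opposite to Rasa1 had 462 ± 100. Gab2 and Lime1 had 3 and 1 counts in all.

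Second messenger genes and targets were detected in 20 of 24 cases. In 8 of 8 overlapping pairs, each with a mean of at least 20 counts, the opposite gene was denser in every library. This held for 63.1% of such pairs over all protein-coding genes, and for 55.1% where the protein-coding gene had a mean of at least 1 TPM. With partners that are not protein-coding the share was 83.7%, but some of these 8 partners, such as Pmel and Zhx3, are protein-coding. Dgka, a diacylglycerol kinase that dampens Ras signalling, had 47.6 ± 18.5 TPM and Pmel opposite to it 6642 ± 1233 counts (SD, n = 4). Pik3cd had 16.5 ± 7.33 TPM and no overlap. Plcg1, the phospholipase recruited by Lat, had 9.47 ± 2.74 TPM, with 3024 ± 512 counts on Zhx3. Opposite counts at Dgkz, Itpr3, Nfatc3, Itpr1 and Itpkb ranged from 711 ± 194 at Dgkz down to 167 ± 53.6 at Itpkb. The lowest genes, Pik3cg and Ppp3ca, had 0.493 and 0.707 TPM.

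**Figure D4:**
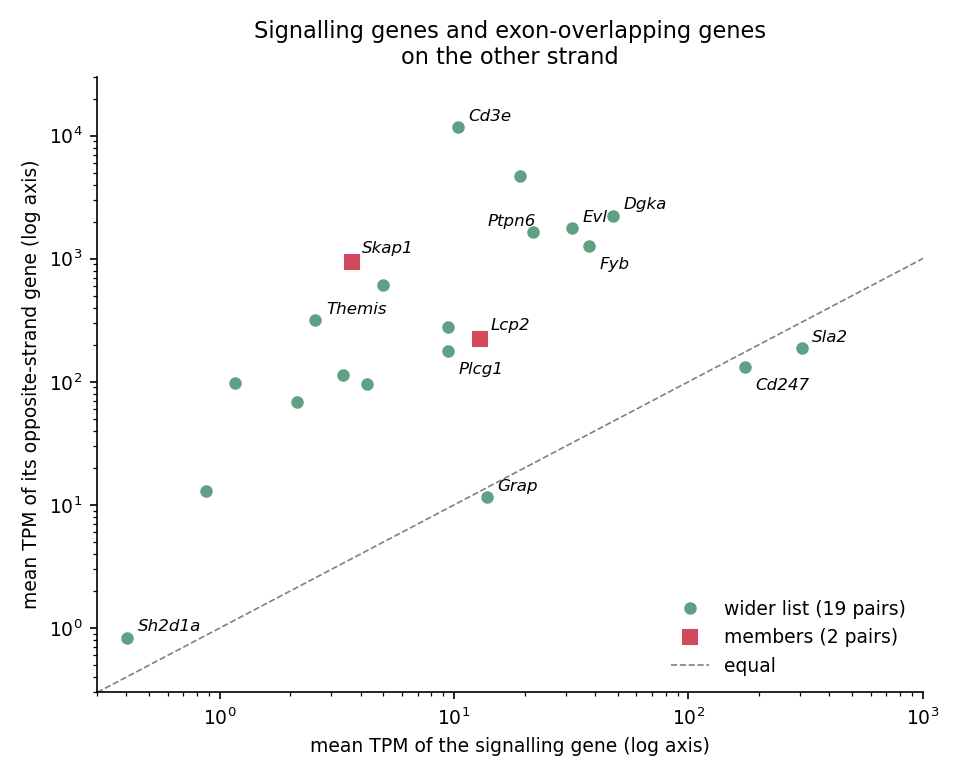
Mean TPM over 4 libraries of a signalling gene against that of its exon-overlapping opposite-strand gene (both axes log), with 2 members as red squares and 19 pairs of the wider list as green circles. Both members lie above the dashed line of equal levels, while Sla2, Cd247 and Grap lie below it and Sh2d1a, just above, had a denser opposite gene in only 2 of 4 libraries.

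Marker genes of the labelled cell type and of other cells were read on their annotated strand. Whether these counts stand for sense or antisense RNA was not tested, so they cannot settle which cells were present. Besides Csf1r, the markers Cd3e, Gata3, Il5, Ptgdr2, Pax5, Cd22 and Mpo share exon bases with an opposite-strand gene. All 6 general T cell markers were detected, with summed levels of 156 to 247 TPM per library. Of 8 T-helper 2 markers 3 were detected, a share close to the 34.0% of all protein-coding genes that reached a mean of 1 TPM. The 8 summed to 20.9 to 29.6 TPM. The detected ones were Gata3, Il4 and Ptgdr2, with means of 5.87, 7.96 and 9.97 TPM. Il5 and Il13, cytokines that define these cells together with Il4, had 0 counts. Il1rl1 had 2 counts in all, and Ccr4 and Ccr8 had 1 each. CD8 markers summed to 0 to 3.80 TPM. Of 6 B cell markers 4 had no count and Cd79a was detected, and the lists for NK cells, macrophages, dendritic cells and granulocytes had 4 of 5, 3 of 6, 2 of 4 and 5 of 6 genes at 0. In these lists Klrk1, Csf1r, Cd68 and Cpa3 were detected. The share of all protein-coding genes at 0 is not given beside these counts, which are a description. Their summed levels were 33.5 to 41.6 TPM for B cells, 2.35 to 5.72 for NK cells, 101 to 123 for macrophages and monocytes, 1.12 to 1.85 for dendritic cells and 33.7 to 59.6 for granulocytes and mast cells. Csf1r alone held 92.8 to 119 TPM of the macrophage sum and shares exon bases with Hmgxb3 on the opposite strand, while Lyz2, Adgre1 and Cd14 were at 0. Fewer cells of a type and less RNA per cell cannot be told apart in such bulk samples, and the part of other cells in the members' values was not tested.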

How the data were processed

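RNA-seq, labelled total RNA although the labels link a poly(A) library protocol, of 4 libraries gave 1 table each of deposited raw counts per gene. Per the file headers, the authors aligned with STAR and counted read pairs over exons of GENCODE mouse release 13 (mm10) with featureCounts 1.4.6-p4, strand setting 1, both ends aligned, with no normalisation. Exon lengths came from the same tables. Symbols and gene types came from GENCODE release 21 of the same build, and 224 of 50600 genes had no type there. Exon overlaps were computed from the exons in the tables, and the partner of a gene was the opposite-strand gene sharing most exon bases (at least 1).

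CPM and TPM, log2 ratios (0.5 counts added), log2(TPM + 0.1), exact two-sided sign-flip permutations and exact Clopper-Pearson intervals were computed in Python 3.11.15 with pandas 2.3.3 and scipy 1.17.1. Spread was tested with edgeR 4.0.16 in R 4.3.3 (filterByExpr, TMM, intercept only, upper-tail F test of the quasi-dispersion over its prior, Benjamini-Hochberg over all genes fitted), with DESeq2 1.42.0 size factors as an alternative. The scripts were tested on simulated data. Libraries differed by a chi-square of 4.65 to 17.0 per degree of freedom, so none was a copy of another.

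The members, lists and tests were chosen with earlier results of these data known. Named genes are the members, genes on the opposite strand at them and, per class of the wider list, the 2 highest, the 2 lowest and those whose opposite gene had a mean of at least 100 counts. Some items that this rule names are not reported here. Other genes were named after their values were seen. The intervals, and the limit of 3 counts set for a count of 0, hold for counting error alone: the sources name no molecular identifiers, so PCR copies are not told from separate molecules.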

Additional observations from a re-analysis of the deposited data

Results flagged for a closer look

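Lck in replicate 2 had 45.3 TPM, far from the other libraries at 21.6 to 24.3 TPM. Its gap to the nearest library was 0.886 of the whole range, above Dixon's 95% critical value for 4 samples. Of 17 sets of 4 values examined this way, 1 exceeded it, and chance gives about 1 in 20. In CPM, replicate 2 of Lck was 1.84-fold the mean of the others.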

How the results depend on the processing

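The ratios at Skap1 and Lcp2 stayed above 0 in every alternative run, from 7.92 to 8.08 and from 4.02 to 4.20 on the log2 scale when a replicate was left out. With plain counts in place of counts per kb they were 6.60 and 1.44, against 8.0 and 4.11, because both opposite genes have fewer exon bases than the member. With an overlap of at least 100 bases, and with partners that are not protein-coding, 1 member kept a denser opposite gene in place of 2, because Lcp2 then has no partner and its ratio could not be computed. Without the 2 genes of most counts, the mean CPM of all 9 members rose, for example from 55.1 to 63.3 for Lck and from 18.0 to 20.4 for Skap1. Only for Skap1 was this more than its own SD, which was the smallest of the 9 at 1.36 CPM. No other member moved by more than its own SD under any alternative. The difference of Ptprc over Lat ranged from -0.096 to 0.113 and that of Lcp2 over Fyn from -0.118 to 0.264 when a replicate was left out, so both changed sign, without replicate 3 in the first case and without replicate 1 or 3 in the second. The mean CPM of Lck was 45.5 without replicate 2 against 55.1 with it. No member passed the adjusted test of spread under any of the 6 alternatives, while 7, 9, 10 and 8 of all genes fitted did without replicates 1 to 4 in turn, against 16 with all. At an unadjusted p under 0.05 the members numbered 1, 0, 2 and 3 in those fits, against 2. Of the wider list 70 to 73 genes were detected when a replicate was left out and 56 when 1 TPM was asked of every library, against 72. No paired analysis was possible because replicate numbers pair nothing between groups in a study of a single group. The ratios and orders were compared within each library. Members had 18 to 796 counts per library, which limits the precision of the lower ones.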
